A study of Oncorhynchus mykiss with 60 samples.

Results

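The genes described here are mesoderm T-box and FGF genes of the rainbow trout embryo. They comprise 12 rows of the 23471 in the deposited count table and stand for 7 of 8 zebrafish gene symbols. A row was taken when its own symbol, or the zebrafish gene paired with it in the deposited ortholog table, was tbx16, tbxta, eomesa, eomesb, fgf8a, fgf24, fgfr1b or flrt3, and every trout copy was kept apart. The symbol tbx16 had 4 rows (tbx16, LOC110523532, LOC110526156 and LOC118945262), fgf8a had 2 (fgf8a and LOC110502398) and fgfr1b had 2 (fgfr1b and LOC110523426). The symbols eomesa (LOC110515126), eomesb, fgf24 and flrt3 had 1 row each. No row matched tbxta, which was not analysed here. The row fgf24 was matched by its own symbol only, the row eomesb was paired with both zebrafish eomesa and eomesb, and LOC110523426 was paired with fgfr1b only under the second of the 2 genome tags that the ortholog table uses. Copies of 1 gene can share reads, so the split of counts among the 4 tbx16 rows, the 2 fgf8a rows and the 2 fgfr1b rows is uncertain.

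Fibroblast growth factors (FGFs) are secreted ligands that bind receptor tyrosine kinases and signal through the RAS and MAP kinase cascade, with Sprouty and Dusp proteins as feedback inhibitors. T-box genes encode DNA-binding transcription factors. In zebrafish, eomesa transcripts are supplied by the mother and the factor acts with Nodal signalling in mesendoderm, while tbx16 and FGF ligands are switched on at the margin of the blastula and are needed for trunk and tail mesoderm. Flrt3 is a transmembrane adhesion protein that binds FGF receptors and modulates their signalling in the frog embryo.

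Eggs and embryos of rainbow trout (Oncorhynchus mykiss) were cut into 5 sections across the animal-vegetal axis, lettered from A (most animal) to E (most vegetal), with 1 RNA library made from each section. The 4 stages were 0 hours post fertilisation (0 hpf), 1 hpf, 1 day post fertilisation (1 dpf, early blastula) and 3 dpf (mid-blastula). The labels give no strain, treatment or genotype, and do not say how many eggs or embryos made up a replicate. They call the 0 hpf samples both non-fertilised eggs and freshly fertilised eggs. There were 3 biological replicates at 0 hpf, 1 dpf and 3 dpf, and 2 of the 3 labelled at 1 hpf, which gives 55 libraries.

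Library totals ran from 1.09 M to 14.46 M counts (M, mega), with a median of 4.6 M. Levels are given as CPM (each count divided by the library total in M, after TMM adjustment over all 55 libraries) and are compared between samples of 1 row, never between rows. At 3 dpf the vegetal markers (10 rows, such as copies of trim36, grip2b and sybu) summed to 10514 to 12312 CPM in section E and to 146 to 294 CPM in section A, so the labelled poles differed as named. Replicate 3 stood apart from replicates 1 and 2 at 1 dpf and at 3 dpf, over genes in general and for several members. Values without it are given for part of the comparisons of sections at these stages. In whole sections, fewer cells of a type and less RNA per cell cannot be told apart. Nothing in the labels beyond the word biological says how the replicates were separated, so p-values reflect spread among the samples at hand, which may in part be technical.

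At 3 dpf, 11 of the 12 members were higher in animal section A than in vegetal section E and 1, the eomesa copy, was lower (edgeR's quasi-likelihood test with the replicate as a block, Benjamini-Hochberg adjusted p under 0.05). Among all 22380 genes tested at this stage, 38.1% were called higher in A and 34.3% lower. The median log2 difference of the 12 members was 5.84, or 5.33 with the 4 members at 0 in section E set at their lower bounds, against 0.07 over all genes. The members were chosen with earlier results of these data known, and several are copies of 1 gene that can share reads. This contrast with all genes, and the later ones, are therefore descriptions. Statements that libraries did or did not overlap are descriptions too, because the share of all genes without overlap is not given here. For 10 members sections A and B held 90.0% to 100% of the CPM summed over the 5 sections in every replicate. CPM is relative to each section's own library, so each section has equal weight. The percentage is therefore not a share of the embryo's transcripts. Rows entered the test on their counts in any section, and most members did so through A and B. All 12 members had passed the filter on low counts. Its removal, which left 11 higher and 1 lower, therefore says nothing about that entry. Leaving out any 1 replicate left 10 or 11 higher and 1 lower.

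The ligand row fgf8a stood at 4.56, 12.3 and 21.2 CPM in section A of the 3 replicates at 3 dpf and at 10.3, 17.8 and 18.4 CPM in section B. It had 0 counts in all libraries of sections C, D and E, where 3 counts over the 3 libraries of a section, the limit that a count of 0 allows, correspond to 0.295 to 0.373 CPM. A and E did not overlap, and fgf8a was at least 35.7-fold higher in A (144 counts against 0, edgeR adjusted p = 1.25e-05).

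The second fgf8a row, LOC110502398, reached 37.7, 43.2 and 66.4 CPM in section A and 88.1, 135 and 81.2 CPM in section B. In sections C to E it lay between 0 and 2.98 CPM, below every A and B library. The log2 difference of A and E was 5.98 (SE 0.57, edgeR adjusted p = 1.21e-07). The third ligand row, fgf24, which in zebrafish acts beside fgf8a in posterior mesoderm, stood at 5.83, 9.55 and 23.3 CPM in A and at 4.72, 4.57 and 2.38 CPM in B. It too had 0 counts in sections C, D and E, and was at least 37.9-fold higher in A than in E (edgeR adjusted p = 0.000137).

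The 2 rows of the FGF receptor gene fgfr1b were unlike each other. The row fgfr1b stood at 9.62, 16.4 and 36.2 CPM in section A, at 0.449, 0 and 7.85 CPM in section B, and had 2 counts in all of C, D and E together. It was at least 60.3-fold higher in A than in E (243 counts against 0, edgeR adjusted p = 0.000103). LOC110523426 was present in every section, with 106, 75.5 and 81.4 CPM in A and 70.5, 57.5 and 66.5 CPM in E. Its A and E values did not overlap, but the log2 difference was 0.44 (SE 0.17, edgeR adjusted p = 0.0298), and the call was lost without replicate 1 (adjusted p = 0.269) or replicate 2 (adjusted p = 0.108) and with plain library sizes instead of TMM factors (adjusted p = 0.0523).

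The row flrt3 reached 8.61, 15.5 and 15 CPM in section A and 28.1, 31.2 and 1.96 CPM in section B. Section C held 2.25, 1.13 and 0 CPM, and section E had 0 counts. The A and E libraries did not overlap, with a level at least 34.2-fold higher in A (138 counts against 0, edgeR adjusted p = 0.000232).

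Among the 4 rows of tbx16, the T-box factor that zebrafish mesodermal cells need to leave the tail bud, the row tbx16 stood at 199, 246 and 243 CPM in section A at 3 dpf, and LOC110523532 at 251, 314 and 174 CPM. The third row, LOC118945262, stood at 66.4, 96.9 and 88.6 CPM in A, and LOC110526156 at 12.7, 35.9 and 38.8 CPM. None of the 4 rows exceeded 2.15 CPM in any library of sections C and D, and for each of them every A library was above every E library. The log2 differences of A and E were 5.70 (SE 0.59, edgeR adjusted p = 2.57e-07) for tbx16 and 5.42 (SE 0.62, adjusted p = 8.45e-07) for LOC110523532. They were 6.28 (SE 0.63, adjusted p = 5.09e-07) for LOC118945262 and 5.52 (SE 1.05, adjusted p = 0.000178) for LOC110526156.

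In section E of 3 dpf, 1 library held most counts of 3 tbx16 rows. Replicate 2 had 52 counts of LOC110523532, 44 of tbx16, 9 of LOC118945262 and 86 of eomesb there, whereas replicates 1 and 3 had 0 to 2 counts of each of the 3 tbx16 rows. Its E level was 4.35% of its A level for LOC110523532 and 4.69% for tbx16. Over the 2424 genes called higher in A by more than 3 log2 units, the median E level was 3.52%, 6.02% and 2.01% of the A level in replicates 1, 2 and 3. Without replicate 2, section E held 2 counts of LOC110523532 against 1804 in A, a ratio of 444 after scaling (exact binomial 95% interval 123 to 3666, counting error only). It held 2 counts of tbx16 against 1923 (ratio 473, interval 131 to 3907), and none of LOC118945262 against 676, at least 111-fold higher in A. How far this library sets the lower values was not tested. Without replicate 3 all 12 members kept their call of A against E in edgeR at an adjusted p under 0.05. The lower bounds were then 14.8-fold for fgf8a, 14.5-fold for fgf24, 24.4-fold for fgfr1b and 22.4-fold for flrt3, and the log2 difference was 4.95 for tbx16 and 4.80 for LOC110526156. LOC110502398 was left with 2 counts in E against 244 in A (ratio 121, interval 33 to 1002).

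The 2 eomesodermin rows ran in opposite directions along the axis at 3 dpf. The row eomesb stood at 423, 412 and 512 CPM in section A, at 81.8, 33.3 and 115 CPM in B, and at 5.59 to 22.6 CPM in C, D and E. Every A library was above every other library, and the log2 difference of A and E was 4.86 (SE 0.45, edgeR adjusted p = 7.5e-08). The eomesa copy LOC110515126 stood at 74.2, 61.8 and 27.6 CPM in A and at 273, 265 and 114 CPM in E, and each replicate was 368% to 429% as high in E as in A. The log2 difference of A and E was -1.99 (SE 0.16, edgeR adjusted p = 1.78e-08).

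**Figure D1:**
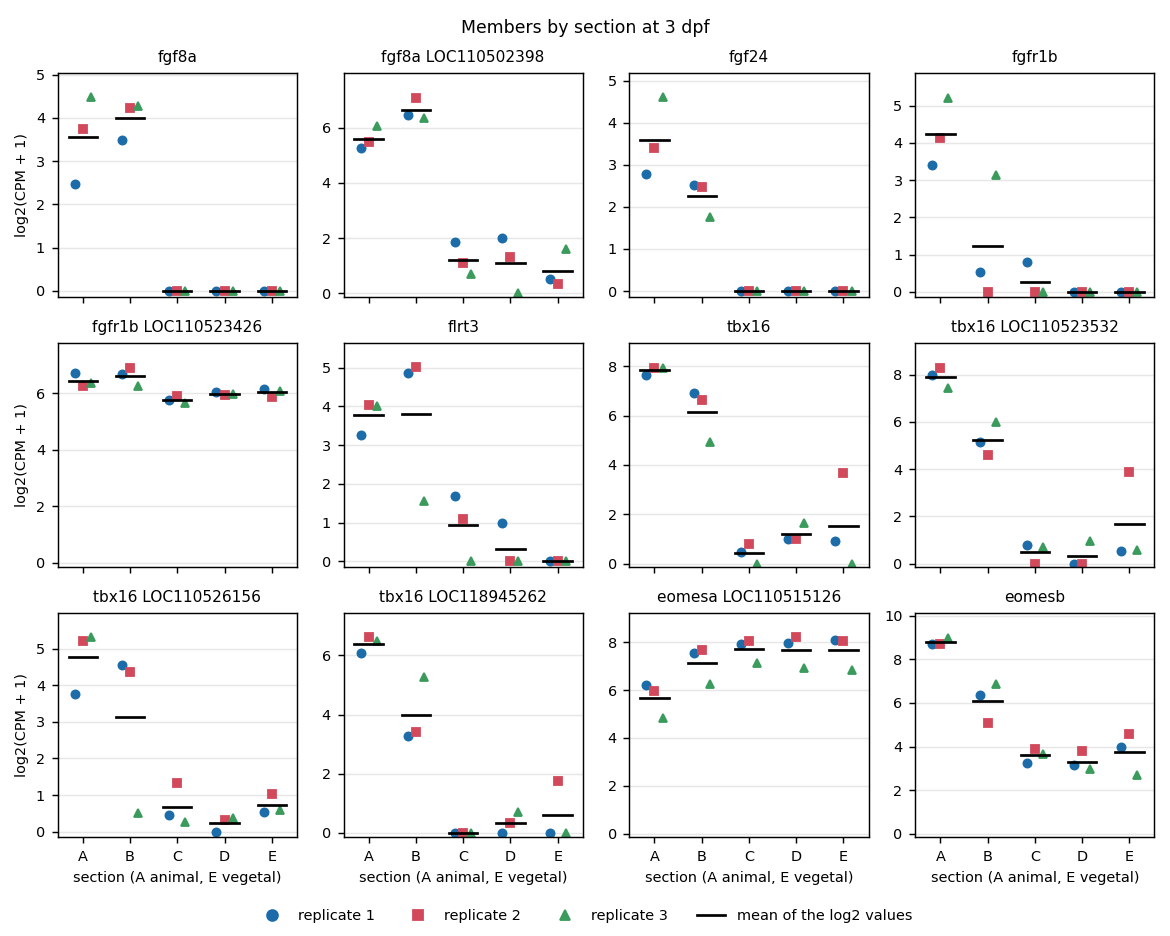
Level of each of the 12 members in sections A (animal) to E (vegetal) at 3 dpf, as log2(CPM + 1) on an axis of its own per member. Points are the 3 replicates and bars the mean of the log2 values; 9 members other than eomesb are high in A or in A and B and low from C to E, eomesb is highest in A and stays at 5.59 to 22.6 CPM from C to E, LOC110523426 is present throughout, and LOC110515126 is lowest in A.

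Sections A and B held the same rows in different proportions. In this comparison, which was chosen after the data had been seen, 6 members were higher in A than in B at 3 dpf, 2 were higher in B, and 4 were not called. Over all genes 28.7% were higher in A and 28.6% higher in B. Several of the members higher in A are copies of tbx16, whose split of reads is uncertain. DESeq2's Wald test called 3 members higher in A and 1 higher in B, so the members' share is not read against that of all genes. With plain library sizes instead of TMM factors, 4867 genes were called higher in A and 7994 in B, against 6415 and 6394 in the main fit.

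The 6 members higher in A were eomesb (log2 difference 2.51, SE 0.38, edgeR adjusted p = 4.82e-05), LOC118945262 (2.33, SE 0.42, adjusted p = 0.000348) and LOC110523532 (2.53, SE 0.50, adjusted p = 0.000463), followed by fgfr1b (3.19, SE 0.68, adjusted p = 0.00165), tbx16 (1.66, SE 0.44, adjusted p = 0.00447) and fgf24 (1.60, SE 0.56, adjusted p = 0.0312). A and B did not overlap for any of these 6, which describes rows already picked by their call in the same libraries and adds no support. Without replicate 3 the log2 difference was 2.85 for eomesb (adjusted p = 5.17e-08), 3.09 for LOC118945262 (7.71e-08), 3.21 for LOC110523532 (1.75e-07) and 0.99 for tbx16 (0.00173), whose A was 1.68, 2.53 and 8.22 times B in the 3 replicates. The row fgfr1b then had 74 counts in A against 2 in B (ratio 50.5, interval 13.5 to 425; adjusted p = 3.03e-05). For fgf24 the size rested on replicate 3, where A was 9.79 times B against 1.23 and 2.09 times in replicates 1 and 2, and without replicate 3 the log2 difference was 0.64 (adjusted p = 0.304). The call of fgf24 was also lost without replicate 2 (0.0809) and with library sizes (0.0631), and that of fgfr1b without the block (0.0587). DESeq2's Wald test did not call LOC110523532 (adjusted p = 0.0624), tbx16 (0.142) or fgfr1b (0.341).

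The 2 members higher in B were the eomesa copy LOC110515126 (log2 difference of A and B -1.50, SE 0.16, edgeR adjusted p = 2.25e-06) and the fgf8a copy LOC110502398 (-1.04, SE 0.32, adjusted p = 0.0106). B was 2.33, 3.13 and 1.22 times A for LOC110502398 in the 3 replicates, and the call was lost without replicate 1 (adjusted p = 0.0859), without replicate 2 (0.147) and with DESeq2 (0.282). Without replicate 3 the log2 difference of LOC110502398 was -1.46. The other ligand row, fgf8a, gave -0.45 (SE 0.34, adjusted p = 0.285) and its A and B values overlapped.

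The rows flrt3 and LOC110526156 differed in direction between replicates. For flrt3, B was 3.26 and 2.02 times A in replicates 1 and 2, whereas A was 7.63 times B in replicate 3. For LOC110526156, A was 0.563, 1.81 and 92.1 times B. Neither was called over the 3 replicates (adjusted p = 0.918 and 0.112), and without replicate 3 flrt3 was higher in B (log2 difference of A and B -1.39, edgeR adjusted p = 0.00175). LOC110526156 gave a log2 difference of 1.38 over the 3 replicates, -0.01 without replicate 3 (adjusted p = 0.987), and 2.77 without replicate 1, where it passed as higher in A (0.0275). The enveloping layer markers (10 rows, such as copies of grhl3, krt8 and cldne) summed to 1040, 872 and 996 CPM in section A and to 246, 197 and 340 CPM in section B, with none of the 10 at 0 in either. Of these markers 8 were higher in A than in B and 1 was lower. Other marker lists went the other way: 2 yolk syncytial layer rows of 5 were higher in A than in B and 3 lower. Of 10 oocyte rows 1 was higher and 9 lower, and all 10 vegetal rows were lower. The part of these lists in the differences between A and B was not tested.

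**Figure D2:**
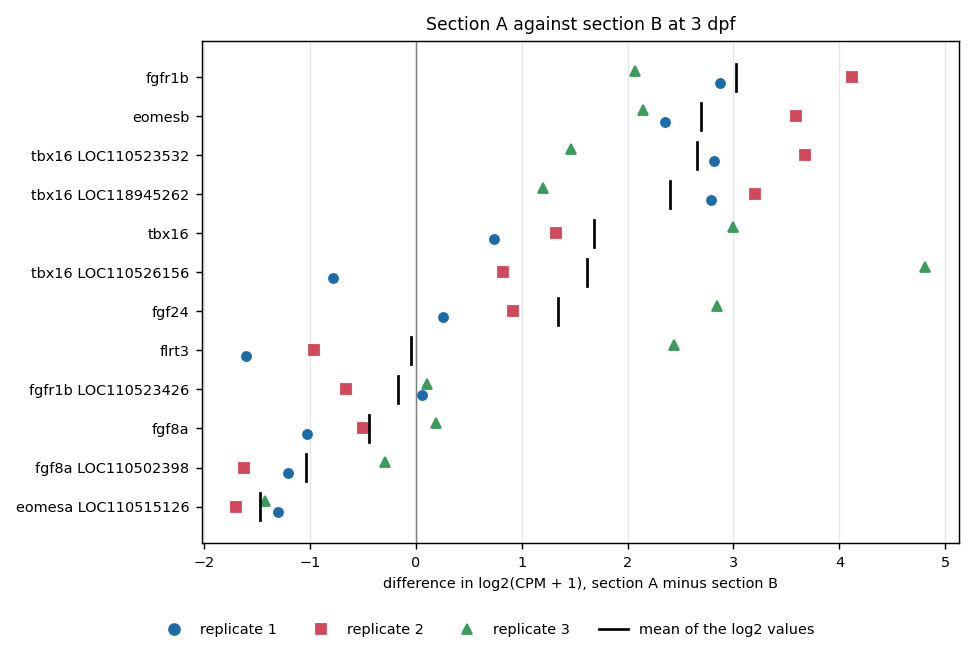
Difference between section A and section B of the same replicate at 3 dpf, in log2(CPM + 1), for the 12 members in order of their mean. Points are replicates and bars the means; fgfr1b, eomesb, fgf24 and 3 tbx16 rows are above 0 in all replicates, LOC110515126 and LOC110502398 are below 0 in all, and replicate 3 is on the other side of 0 from replicates 1 and 2 for flrt3 and fgf8a.

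The rise between 1 dpf and 3 dpf was measured in each section. In section A, 10 of the 12 members rose, the eomesa copy fell and LOC110523426 was not called. Among all 23458 genes tested, 26.7% rose and 22.4% fell, and the median log2 change was 4.66 for the members and 0.01 for all genes. With plain library sizes instead of TMM factors, 4362 genes rose and 7972 fell, against 6265 and 5261, the median of all genes was -0.39, and 9 of the 10 members kept the call. DESeq2's Wald test called 6 of the 10, and not LOC118945262, fgf8a, fgf24 or fgfr1b (adjusted p from 0.276 to 0.789).

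Of the T-box rows, LOC110523532 rose in section A from 1.42, 0.515 and 0.224 CPM at 1 dpf to the values above at 3 dpf, a log2 change of 8.41 (SE 0.88, edgeR adjusted p = 5.63e-09). The row tbx16 rose from 4.26, 1.37 and 0.673 CPM, a change of 6.77 (SE 0.90, adjusted p = 4.43e-08). LOC118945262 had 3 counts in section A at 1 dpf and 889 at 3 dpf, a ratio of 597 after scaling (exact binomial 95% interval 204 to 2900, counting error only; edgeR adjusted p = 1.5e-06). The stages did not overlap for any of these rows, nor for LOC110526156, which rose by 4.63 (SE 1.18, edgeR adjusted p = 0.00124). All were already called in the same libraries, so the lack of overlap adds no support. The row eomesb rose from 32.9, 29.0 and 8.86 CPM by 4.26 log2 units (SE 0.51, edgeR adjusted p = 6.17e-09). The eomesa copy fell from 157, 156 and 84.9 CPM to 74.2, 61.8 and 27.6 CPM, a change of -1.29 (SE 0.42, adjusted p = 0.00972), and every 3 dpf library was below every 1 dpf library.

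Of the FGF rows, LOC110502398 had 8, 3 and 0 counts in section A at 1 dpf and rose by 6.49 log2 units (SE 0.95, edgeR adjusted p = 4.61e-07). The row fgf24 had 4, 7 and 0 counts and rose by 4.49 (SE 1.13, adjusted p = 0.00232), fgfr1b had 5, 2 and 2 counts and rose by 5.55 (SE 1.17, adjusted p = 0.00041), and flrt3 had 5, 4 and 1 counts and rose by 4.68 (SE 1.18, adjusted p = 0.00152). The row fgf8a was already at 2.55 and 2.75 CPM in replicates 1 and 2 at 1 dpf and at 0 in replicate 3. Its rise of 2.86 (SE 1.1, adjusted p = 0.0379) was lost without 1 dpf replicate 1 (adjusted p = 0.08) or 2 (0.0623), without 3 dpf replicate 2 (0.0812) or 3 (0.16), with library sizes (0.0674) and with DESeq2 (0.789). LOC110523426 stood at 75.3, 68.5 and 82.5 CPM at 1 dpf, a range that overlaps that of 3 dpf (log2 change 0.22, SE 0.15, adjusted p = 0.244).

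**Figure D3:**
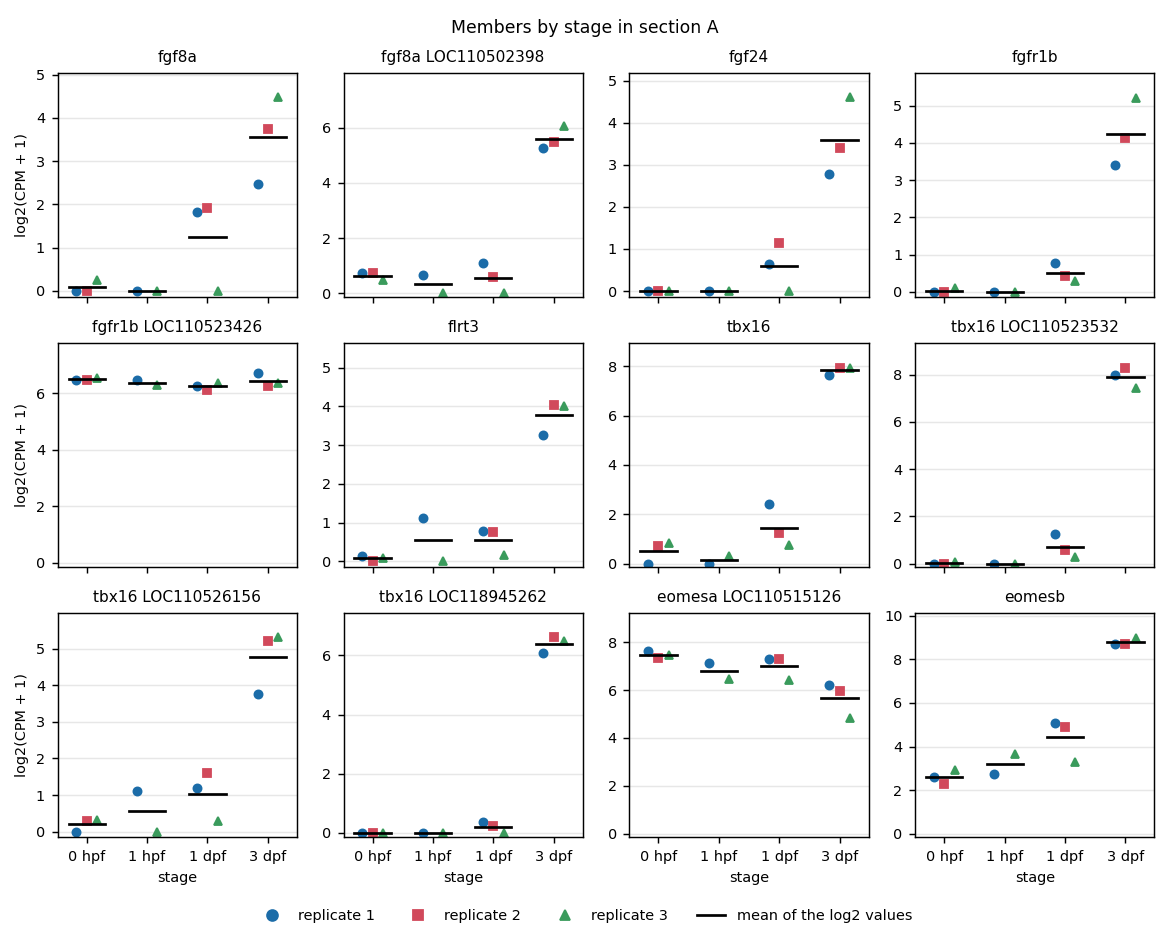
Level of each of the 12 members in section A at the 4 stages, as log2(CPM + 1) on an axis of its own per member. Points are replicates (2 at 1 hpf) and bars the mean of the log2 values; 9 members are low until 1 dpf and higher at 3 dpf, eomesb rises from a low level, LOC110515126 is lowest at 3 dpf, and LOC110523426 stays between 68.5 and 106 CPM.

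In section B, 7 members rose between 1 dpf and 3 dpf and none fell, where 12.5% of all genes rose and 4.83% fell. The largest changes were those of LOC110502398 (6.65 log2 units, SE 0.94, edgeR adjusted p = 4.01e-06), LOC110523532 (6.27, SE 0.88, adjusted p = 1.35e-05) and flrt3 (5.66, SE 1.26, adjusted p = 0.0019), apart from LOC118945262, which went from 2 to 347 counts (ratio 183, interval 50.3 to 1517). The rows tbx16 (4.91, SE 0.85, adjusted p = 5.95e-05), eomesb (1.51, SE 0.47, adjusted p = 0.0205) and LOC110523426 (0.42, SE 0.15, adjusted p = 0.0479) also passed. With the replicate number as a block, LOC110526156 (2.86, adjusted p = 0.017) and fgf8a (3.13, adjusted p = 0.0343) passed too. LOC110526156 also passed without 3 dpf replicate 3 (adjusted p = 0.0262), and fgfr1b without 3 dpf replicate 1 (0.0386) or 2 (0.0272). LOC118945262 was not called by DESeq2 (adjusted p = 0.67), and eomesb lost the call without 1 dpf replicate 3 (0.11), 3 dpf replicate 1 (0.0712) or 3 dpf replicate 3 (0.144). LOC110523426 lost it without any 1 of 4 replicates, with adjusted p-values from 0.105 to 0.36, and with library sizes (0.279). The eomesa copy gave 0.15 in B (SE 0.40, adjusted p = 0.879). In sections C, D and E none of the 12 members was called by edgeR, with 3, 1 and 3 of them at an unadjusted p under 0.05 and none called by DESeq2. Over all 23458 genes 0%, 0.00853% and 0% were called in C, D and E, and 721, 872 and 717 genes were at an unadjusted p under 0.05.

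With the counts of the 5 sections summed within each replicate, 7 members were higher at 3 dpf than at 1 dpf and none was lower, where 8.06% of all 23460 genes were higher and 3.15% lower. Sections enter these sums by their sequencing depth, so the summed levels are not levels of the whole embryo. The summed level of LOC110523532 went from 0.309 ± 0.239 to 62.7 ± 15.5 CPM (SD, n = 3), that of tbx16 from 1.52 ± 1.00 to 70.9 ± 18.4 CPM, and that of LOC110502398 from 0.397 ± 0.348 to 39.3 ± 1.45 CPM. The edgeR adjusted p-values were 0.000367, 0.00345 and 0.00636. The others were LOC118945262 (0.00135), eomesb (0.00315), fgfr1b (0.0115) and flrt3 (0.0227). The call of flrt3 was lost when any 1 of 5 of the 6 replicates was left out, with adjusted p-values from 0.0542 to 0.0846. The call of fgfr1b was lost without 1 dpf replicate 2 (0.058). LOC110526156 missed the threshold (adjusted p = 0.0541) and passed with the replicate number as a block (0.0299). The summed eomesa copy stood at 177 ± 60.2 and 167 ± 71.4 CPM (SD, n = 3; log2 change -0.16, SE 0.38, adjusted p = 0.888), with overlapping stages.

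Before 3 dpf, the 9 members other than LOC110515126, eomesb and LOC110523426 had few counts. At 1 dpf fgf8a was at 2.55, 2.75 and 0 CPM in section A and at 1.96, 4.07 and 0 CPM in section B, with 2 counts in C and none in D and E. It was at least 5.98-fold higher in A than in E (34 counts against 0, edgeR adjusted p = 0.00146), a call lost with DESeq2 (adjusted p = 0.413) and without the block (0.0799). The counts of fgf24 at 1 dpf were 4, 7 and 0 in A and 10, 10 and 0 in B. Replicate 3 of 1 dpf held 0 counts of fgf8a, fgf24, LOC110502398 and LOC118945262 in all 5 sections, and 13 of the 117 tbx16 counts of that stage.

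That replicate was also lower in the enveloping layer markers of section A, at 208 CPM against 488 and 358 CPM in replicates 1 and 2, with 4 of the 10 markers at 0 against 1 in each of the others. What this library contributes to the values of 1 dpf was not tested. The row tbx16 gave a log2 difference of A and E of 1.93 at 1 dpf (SE 0.83, edgeR adjusted p = 0.0517), which passed without replicate 3 (2.32, adjusted p = 0.0266). The row eomesb gave 0.76 (SE 0.45, adjusted p = 0.154) with all replicates and 1.14 (adjusted p = 9.74e-06) without replicate 3. At 1 dpf, a difference of A and B was called for none of the 6 members tested (adjusted p of 0.05 or more in edgeR, 0 members and 2318 of 22141 genes at an unadjusted p under 0.05, and no member called by DESeq2), where 0.113% of genes were higher in A and 1.04% in B.

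At 0 hpf and 1 hpf the rows fgf8a, fgf24, fgfr1b, LOC110523532 and LOC118945262 had 0 to 3 counts per library. LOC110502398 was found in all 15 libraries of 0 hpf at 2 to 8 counts (0.338 to 2.29 CPM), in all 5 sections of 1 hpf replicate 1 at 2 to 7 counts, and at 0 counts in all 5 sections of 1 hpf replicate 3. The row flrt3 likewise had 13 counts in 1 hpf replicate 1 and 0 in replicate 3. With the sections summed, edgeR called none of the 12 members between 0 hpf and 1 hpf (3.48% of all genes called, 0 members and 5292 genes at an unadjusted p under 0.05, no member called by DESeq2). Between 1 hpf and 1 dpf it called none of the members and 0% of all genes, with 4 members and 679 genes at an unadjusted p under 0.05. DESeq2 called 11 genes and no member in that comparison.

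Only LOC110515126, eomesb and LOC110523426 had counts in all 55 libraries. At 0 hpf the eomesa copy LOC110515126 stood at 195, 162 and 178 CPM in section A and at 269, 218 and 248 CPM in section E, and LOC110523426 at 88.5, 87.8 and 92.8 CPM in A and 75.5, 66.1 and 65.2 CPM in E. Neither overlapped between the poles. These 2 members, of 4 tested, were the ones called: the eomesa copy was lower in A by a log2 difference of -0.44 (SE 0.09, edgeR adjusted p = 0.000588) and LOC110523426 higher by 0.40 (SE 0.12, adjusted p = 0.00769, or 0.122 without replicate 3). Over all genes 32.0% were called higher in A and 32.0% lower, so 1 and 1 of 4 is near the background. With plain library sizes instead of TMM factors the split over all genes was 8388 higher and 5339 lower, against 6965 and 6981.

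The same 2 directions were seen at 1 hpf and 1 dpf. The eomesa copy gave -0.46 at 1 hpf (SE 0.15, edgeR adjusted p = 0.0244) and -0.63 at 1 dpf (SE 0.11, adjusted p = 0.000119), and LOC110523426 gave 0.42 (SE 0.13, adjusted p = 0.0161) and 0.55 (SE 0.11, adjusted p = 0.000346). At 1 hpf, 1 of the 3 members tested was higher in A and 1 lower, beside 27.6% and 24.9% of all genes, and at 1 dpf 2 of 6 were higher and 1 lower, beside 32.9% and 30.5%. The eomesa calls rest on the pairing of sections within a replicate: its A and E libraries overlapped, and without the block the adjusted p was 0.501 at 1 hpf and 0.155 at 1 dpf. At 1 hpf the eomesa call was also lost without replicate 1 (0.243) and with library sizes (0.206). That of LOC110523426 was lost without replicate 1 (0.193) or 3 (0.31), without the block (0.157) and with DESeq2 (0.0893). With library sizes the splits over all genes were 7490 higher and 3935 lower at 1 hpf, against 5972 and 5395, and 9659 and 4620 at 1 dpf, against 7281 and 6755.

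Levels of eomesb were lowest at 0 hpf, at 3.38 to 9.47 CPM over the 15 libraries, and 4.60 to 17.8 CPM over the 10 libraries of 1 hpf, ranges that overlap. At 1 dpf replicates 1 and 2 stood at 29.0 to 40.2 CPM in sections A and B and at 12.9 to 16.0 CPM in C, D and E, while replicate 3 stood at 8.86 and 6.86 CPM in A and B and at 11.9 to 21.2 CPM in C to E. At 3 dpf the order of the section means was A (449 ± 54.9 CPM, SD, n = 3), B (76.7 ± 41.2), E (14.4 ± 8.51), C (11.4 ± 2.68) and D (9.22 ± 3.29), and the last 3 overlap. For the eomesa copy the order at 3 dpf was D (219 ± 90.2), E (217 ± 89.9), C (215 ± 65.5), B (154 ± 68.7) and A (54.6 ± 24.1), and the first 4 overlap.

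**Figure D4:**
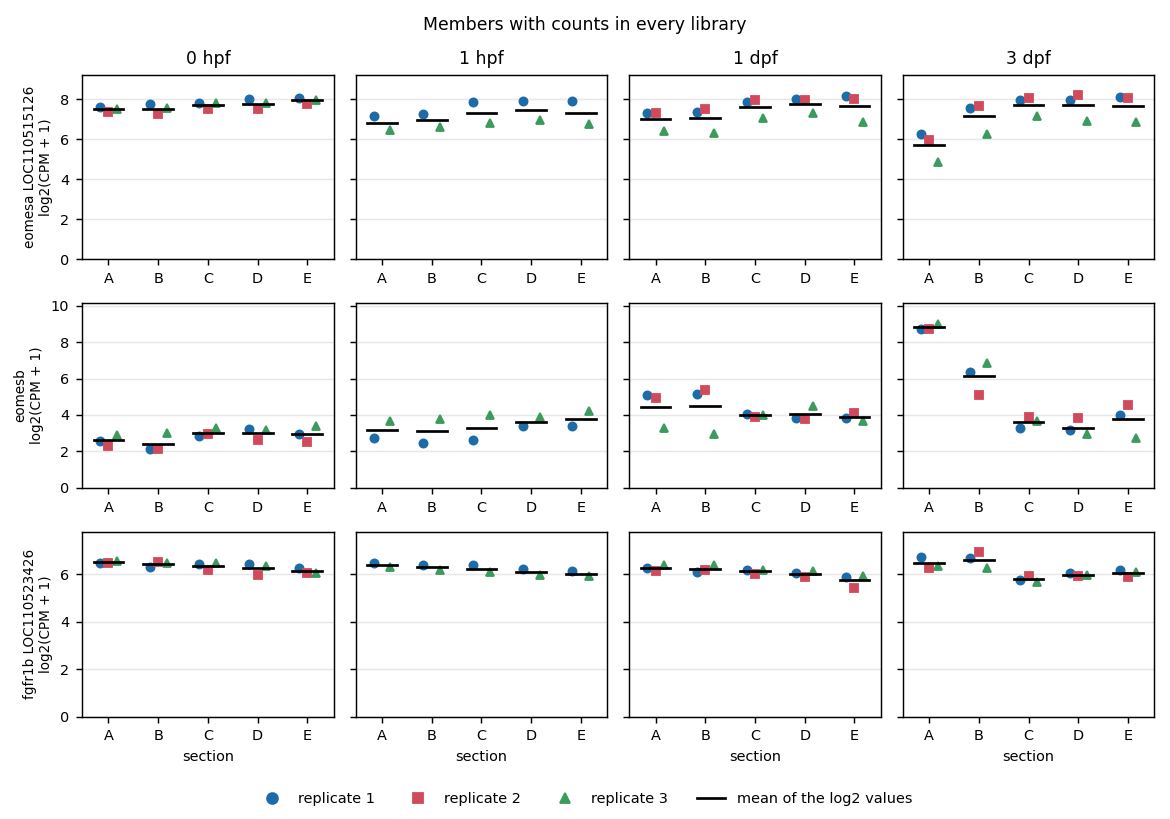
Levels of the 3 members with counts in every library, by section within each stage, as log2(CPM + 1). Points are replicates and bars the mean of the log2 values; section A of LOC110515126 drops at 3 dpf, sections A and B of eomesb climb at 3 dpf, and LOC110523426 changes little by comparison.

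The difference between the poles itself changed between 1 dpf and 3 dpf for 4 of the 12 members in an interaction test, 3 becoming more animal and 1 more vegetal, beside 22.8% and 21.2% of all genes. The difference of A and E grew by 4.12 log2 units for eomesb (SE 0.58, edgeR adjusted p = 2.78e-07) and moved by -1.32 for the eomesa copy (SE 0.17, adjusted p = 3.76e-08). LOC110502398 (adjusted p = 0.0375) and flrt3 (adjusted p = 0.0433) also passed, but each had 3 counts in section E at 1 dpf, so no size is given. The row tbx16 gave 3.75 (SE 1.57, adjusted p = 0.0512), and passed without 3 dpf replicate 2 (0.00289) or 3 (0.0493). LOC110523426 gave -0.07 (SE 0.18, adjusted p = 0.811). For fgf8a and fgf24, section E was at 0 at both stages and the change has no size. Without the block 2 members were called and the eomesa copy was not (adjusted p = 0.0905). With library sizes 3406 genes moved up and 7617 down, against 5343 and 4966.

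Other genes of the same pathways were counted from lists of zebrafish symbols, each row counted once per list. Only part of each list had a row, so the counts describe these rows and not whole families. The symbols with a row were 8 of 23 for FGF ligands and receptors and 25 of 43 for the FGF pathway. They were 3 of 22 for further T-box genes and 24 of 51 for mesoderm and tail bud genes. For Flrt partners and adhesion they were 9 of 19, and for eomesodermin cofactors 14 of 16. The background for these counts is 38.1% of all genes higher and 34.3% lower for A against E at 3 dpf, and 26.7% rising and 22.4% falling in section A. Of 11 further rows of FGF ligands and receptors, 6 were higher in A than in E at 3 dpf and 5 lower (median log2 difference 0.86, against 0.07 for all genes), and between 1 dpf and 3 dpf in section A 5 rose and 3 fell (median 0.58, against 0.01). The receptor fgfr4 was higher in A (81.4 against 1.82 CPM, log2 difference 5.28, edgeR adjusted p = 1.36e-08), as were the decoy receptor copy fgfrl1b LOC110504773 (5.20, adjusted p = 4.17e-08) and the ligand fgf17 (3.85, adjusted p = 0.000133). The rows fgf16 (-3.07, adjusted p = 3.69e-05), fgfrl1a LOC110488539 (-2.48, adjusted p = 7.97e-06) and the intracellular FGF-like gene fgf13a (-2.03, adjusted p = 3.67e-05) were lower in A. In section A, fgf17 rose from 0.189 to 9.8 CPM between 1 dpf and 3 dpf (5.55, adjusted p = 8.16e-05) and fgf16 fell from 4.96 to 0.976 CPM (-2.47, adjusted p = 0.000329).

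Of 41 rows of FGF signal transducers, feedback genes and targets, 20 were higher in A than in E at 3 dpf and 13 lower (median 0.58), and in section A 17 rose from 1 dpf and 7 fell (median 0.40). The counts of A against E in these 41 rows lie near the shares of all genes. The phosphatase dusp6, a feedback inhibitor of ERK, was 5.94 log2 units higher in A (114 against 1.56 CPM, edgeR adjusted p = 1.28e-08), the Sprouty copy spry2 LOC110527444 3.94 higher (adjusted p = 3.93e-07) and spred2a 2.74 higher (adjusted p = 9.82e-08). The ERK copy mapk3 LOC110521892 (-3.23, adjusted p = 4.18e-09), the feedback gene copy il17rd LOC110527723 (-2.77, adjusted p = 1.97e-08) and the phosphatase copy ptpn11a LOC110523836 (-1.61, adjusted p = 4.15e-08) were lower in A. From 1 dpf to 3 dpf in section A, dusp6 LOC110524405 rose by 4.56 (adjusted p = 5.31e-08), spry2 LOC110527444 by 3.16 (adjusted p = 4.43e-07) and spred2b LOC118936686 by 5.27 (adjusted p = 3.53e-06), and the adaptor grb2a fell by 1.91 (adjusted p = 1.69e-10), il17rd LOC110527723 by 1.57 (adjusted p = 9.14e-09) and map2k2b LOC110508416 by 0.76 (adjusted p = 4.23e-05).

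Of 5 further T-box rows, 3 were higher in A than in E and none lower, and the same number rose in section A. They included mgaa, a T-box gene of the MAX network (6.08 log2 units higher in A, edgeR adjusted p = 7.49e-08), its copy LOC110505801 (2.00, adjusted p = 1.02e-07) and the eomesodermin relative tbr1b LOC110520066, which had 371 counts in A against 3 in E (adjusted p = 1.65e-05). Of 29 mesoderm and tail bud rows, 23 were higher in A and 4 lower (median 5.02), and in section A 19 rose and 3 fell (median 4.63). Among them snai1b (6.49, adjusted p = 2.88e-08), snai1a LOC110494556 (4.10, adjusted p = 1.81e-08) and the ventral repressor vox (6.0, adjusted p = 1.11e-07) were higher in A. The Delta ligand copies dlc LOC110503618 (-2.66, adjusted p = 3.51e-08) and dld LOC110502965 (-2.16, adjusted p = 8.56e-09) and the presomitic mesoderm gene msgn1 (-1.93, adjusted p = 0.000526) were lower in A. From 1 dpf to 3 dpf in section A the smallest adjusted p was that of the repressor copy ved LOC110509556, from 0.217 to 258 CPM (10, adjusted p = 4.64e-13), followed by vox (6.81, adjusted p = 1.06e-09) and vent (7.90, adjusted p = 1.41e-09).

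Of 10 rows of Flrt partners and adhesion genes, 5 were higher in A at 3 dpf and 3 lower (median 0.64), and 4 rose and 2 fell in section A (median 0.15), near the shares of all genes given above. The small GTPase rnd1b, which acts with Flrt3 on cadherin adhesion in the frog, was at least 42.4-fold higher in A (171 counts against 0, edgeR adjusted p = 9.06e-07) and cdh2, N-cadherin, had 182 counts in A against 2 in E (adjusted p = 8.93e-05). The latrophilin copy adgrl2a LOC110530452 was 1.27 log2 units higher in A (adjusted p = 1.05e-05), and rnd3a LOC110501874 (-2.16, adjusted p = 3.52e-07) lower. Also lower in A were a second latrophilin copy, adgrl3.1 LOC110531730, and unc5db LOC110525897. With a replicate left out, their log2 differences were -1.05 to -0.84 and -0.93 to -0.75. Of 24 rows of eomesodermin cofactors, 17 were higher in A and 5 lower (median 1.1), and 17 rose and 2 fell in section A (median 0.91). They included nanog LOC110535236 (1522 against 44.5 CPM, 5.08, adjusted p = 7.07e-09), foxh1 LOC110490826 (6.07, adjusted p = 5.47e-08) and a smad4 row (4.72, adjusted p = 4.61e-08) as higher in A, and the activin receptor copies acvr1bb LOC110528117 (-1.67, adjusted p = 2.55e-06) and LOC110532699 (-0.87, adjusted p = 1.82e-05) and smad2 LOC101867532 (-0.78, adjusted p = 0.0001) as lower.

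**Figure D5:**
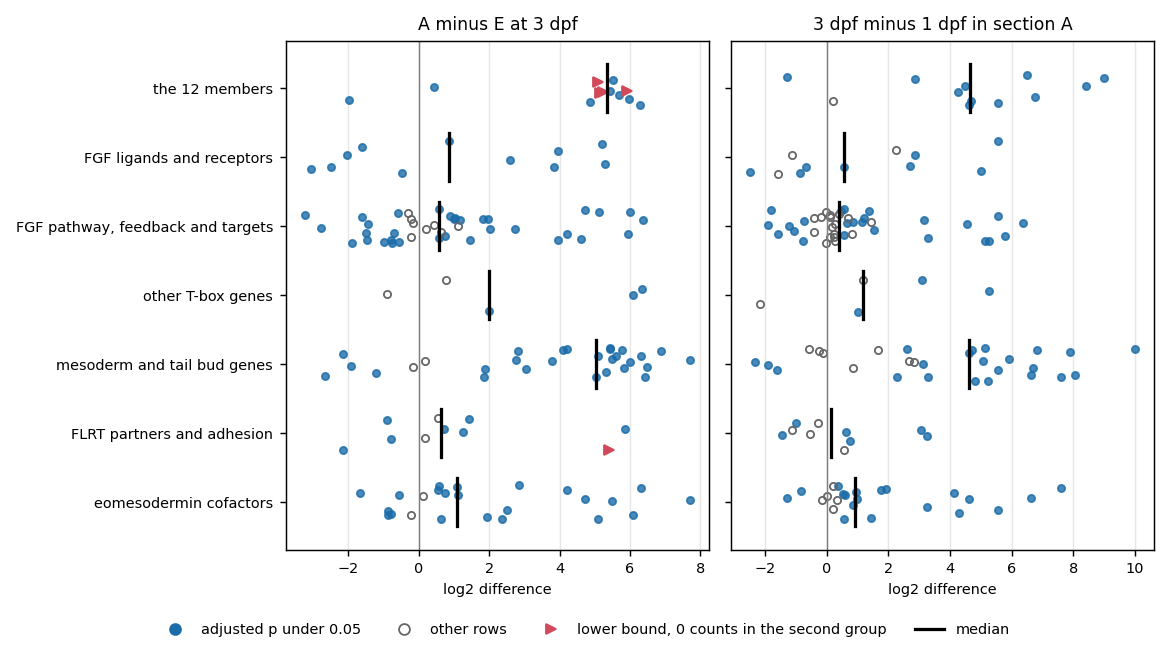
Log2 differences of the 12 members and of the rows of 6 lists, for section A minus section E at 3 dpf (left) and for 3 dpf minus 1 dpf in section A (right). Each point is a row; filled points passed an adjusted p of 0.05, triangles are lower bounds for rows at 0 counts in the second group, and bars are medians, 5.33 and 4.66 for the members.

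Most marker rows of the yolk syncytial layer and of the enveloping layer were higher in section A, along with most members. Of 5 yolk syncytial layer rows, 4 were higher in A than in E at 3 dpf and mxtx2 was lower (-0.89, edgeR adjusted p = 0.00683), and 4 rose in section A from 1 dpf and none fell. Of 10 enveloping layer rows, 8 were higher in A than in E and 2 lower, klf17 (-1.16, adjusted p = 8.68e-05) and grhl1 LOC110505324 (-0.52, adjusted p = 0.0124), and in section A 6 rose while these 2 fell. The yolk syncytial layer markers (5 rows, such as mxtx1 and apoeb copies) summed to 57.8 to 87.2 CPM in section A at 1 dpf, to 678 to 818 CPM there at 3 dpf, and to 118 to 147 CPM in section E. The enveloping layer markers summed to 208 to 488 CPM in section A at 1 dpf, to 872 to 1040 CPM at 3 dpf, and to 145 to 184 CPM in E. The oocyte markers (10 rows, such as zar1l, bmp15 and btg4) fell in section A for 8 of 10 rows and stood at 420 to 461 CPM there at 3 dpf, against 1377 to 2007 CPM in E. Of these 10 rows, 8 were lower in A than in E at 3 dpf and 1, h1m LOC110528421, was higher. Their median log2 difference of A and E at 3 dpf was -2.08, and their median change from 1 dpf in section A was -1.35. The eomesa copy gave -1.99 and -1.29. Only 4 of 8 listed yolk syncytial layer symbols and 6 of 13 enveloping layer symbols had a row. What these lists contribute to the members' differences was not tested.

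The genes whose levels over the 20 stage and section means were most like a member's are given as a description. All 20 means come from the same libraries, so these correlations carry no test. For the row tbx16 they were dusp6 (Pearson r = 0.992), smad7 LOC101268922 (0.991) and ypel2a (0.989), and for LOC110523532 they were ncs1a (0.995), spry4 LOC110537767 (0.992) and si:dkey-56m19.5 (0.992). LOC110526156 was most like noto LOC110498312 (0.990) and if4ea (0.990). The row fgf8a was most like gbx1 LOC110530476 (0.997) and dlx5a (0.993), and LOC110502398 most like fmnl3 LOC110532685 (0.985) and cdt1 LOC110506411 (0.985). The row flrt3 was most like pcdh19 (0.992) and gata6 (0.981), and the eomesa copy most like fbxo8 LOC110534492 (0.985). LOC110523426 had no gene above 0.921 (prmt2). Between members, the 4 tbx16 rows correlated at 0.97 to 0.99, and the eomesa copy correlated at -0.48 to -0.81 with every other member.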

How the data were processed

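RNA of 55 of 60 labelled libraries was analysed. The 5 libraries of 1 hpf replicate 2 were not analysed here. The deposited values are whole-number counts of reads per gene, which the authors made with fastp 0.23.4, STAR 2.7.11 and HTSeq 2.0.4, per the submitters' processing notes. The library kit was directional, per the labels' protocols, and ribosomal RNA had been depleted. For the genome build and for reads shared by copies, no setting is stated (not given in the sources used here). Of the 23471 rows, 23470 matched a RefSeq symbol, and no sequences or coordinates were used, so the promoter motif search was not run.

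The main test on counts was edgeR's (version 4.0.16, with limma 3.58.1, under R 4.3.3): TMM factors, filterByExpr with a minimum count of 10, the quasi-likelihood test and Benjamini-Hochberg adjustment over all genes tested, with a threshold of 0.05. Sections of 1 stage were compared with the biological replicate as a block, stages without it. Stages were compared in fits over all 55 libraries, or over the summed sections of all replicates, and the interaction test used all 55 libraries with each replicate of a stage as a block. The fit of stages by section held no replicate term, so sections of the same replicate entered as independent libraries. The p-values of that fit may therefore be too small. SE is the absolute log2 value divided by the square root of F. The script was tested on simulated data. Replicates of a group differed by 2.57 to 18.73 times the sampling variance (50 pairs), so none was counted as a repeat of another. At 1 dpf and 3 dpf, replicates 1 and 2 differed by 2.57 to 4.16 times, and pairs with replicate 3 by 6.15 to 18.73 times.

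Replicate numbers were checked for pairing by correlating deviations from the stage means. Same-numbered samples of 1 dpf and 3 dpf correlated at 0.59, 0.50 and 0.70. Replicates 1 and 2 also correlated across numbers, at 0.35 and 0.51, and with replicate 3 at -0.65 to -0.47. At 1 hpf, replicate 1 correlated at 0.50 to 0.65 with replicates 1 and 2 of the later stages, and at -0.71 and -0.69 with replicate 3. These values part replicate 3 from the others and do not show that each number is matched. The fit with the replicate block is given where it changes a call. Intervals and limits of 3 counts cover counting error only. In a library 3 counts are 0.207 to 2.752 per M of its total, before TMM adjustment. Rows were named by rule: every member, and up to 3 further genes per list and direction with the smallest adjusted p. Of the 3 genes per member with the most similar pattern over log2(CPM + 1) means, only a part is named. The members and lists were chosen with earlier results of these data known. The comparison of A and B was added after seeing the data. DESeq2 1.42.0, other scaling factors, no filter and leaving out each replicate were the alternatives.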

Additional observations from a re-analysis of the deposited data

Results flagged for a closer look

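Between 1 dpf and 3 dpf the difference of sections A and E changed by a test of the change itself for 4 of the 12 members. Of all genes, 22.8% moved up and 21.2% moved down in this test, so the count of members does not stand out. For eomesb the difference grew by 4.12 log2 units (SE 0.58, edgeR adjusted p = 2.78e-07), from 0.76 at 1 dpf to 4.86 at 3 dpf, and was above 0 at 3 dpf in 3 of 3 replicates. At 1 dpf it was below 0 in replicate 3, where E stood at 134% of A. For the eomesa copy LOC110515126 the difference moved by -1.32 (SE 0.17, adjusted p = 3.76e-08), from -0.63 to -1.99, below 0 in 3 of 3 replicates at both stages. The call of the eomesa copy was lost without the block (adjusted p = 0.0905). For LOC110502398, a copy of fgf8a, and for flrt3 the adjusted p was 0.0375 and 0.0433, with no size because section E held 3 counts of each at 1 dpf. The call of LOC110502398 was lost without the block (adjusted p = 0.0983), without 1 dpf replicate 2 (0.346) and without 3 dpf replicate 2 (0.0739). The call of flrt3 was lost without 1 dpf replicate 1 (0.0866), 2 (0.237) or 3 (0.0583) and without 3 dpf replicate 2 (0.0878). What sets these changes was not tested.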

How the results depend on the processing

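Of 56 member results past the threshold, 33 stayed past it under every alternative run and 23 lost it under at least 1, and no called direction turned. Of those not past it, 13 passed under at least 1 alternative. The counts below are of members unless genes are named.

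Without the replicate block, the calls of A against E were 0 higher and 0 lower at 1 hpf (3191 and 2974 genes, against 5972 and 5395), 1 and 0 at 1 dpf, and the change of A minus E held 0 members moving down. With the replicate block, 1053 genes were higher and 769 lower at 1 hpf than at 0 hpf, against 519 and 297. The block changed no other call between stages than those given with the results. Same-numbered samples of 0 hpf and later stages correlated at -0.01 to 0.08, so 0 hpf shares only the number.

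With DESeq2, 0 members were higher in A at 1 hpf, 1 at 1 dpf and 6 in section A between 1 dpf and 3 dpf, 5 moved up in the change of A minus E, and genes called numbered 1463 higher and 1466 lower (1 hpf against 0 hpf), 10 and 1 (1 dpf against 1 hpf) and 1239 lower (3 dpf against 1 dpf, summed). With library sizes, 0 were lower in A at 1 hpf, 5 were higher at 1 dpf and 2 moved down in the change of A minus E, while genes numbered 7972 lower in section A and 3406 up and 7617 down in the change. That scaling moved the median log2 change of all genes in section A from 0.01 to -0.39.

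Leaving out 1 replicate gave 0 to 1 members higher in A at 0 hpf, 0 higher and 0 to 1 lower at 1 hpf (3136 to 4144 genes higher, 3536 to 4392 lower), 2 to 4 higher at 1 dpf, and 1 to 4 moving up in the change of A minus E. Genes called ranged from 117 to 1887 higher and 32 to 1220 lower (1 hpf against 0 hpf), 0 to 97 and 0 to 5 (1 dpf against 1 hpf) and 970 to 1827 and 256 to 546 (3 dpf against 1 dpf, summed). At 1 hpf the remaining sample was assumed to vary like the other stages. The causes were not tested. Sizes against 1 to 3 counts are ratios with a counting interval and those against 0 are lower bounds, and the 2 replicates of 1 hpf limit every result of that stage.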
